A study of Mus musculus with 2 samples.

Results

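The genes followed here belong to cellular iron handling and were read across the cell classes of the mouse retina after a sort on CD45, the surface protein of leukocytes: Fth1 and Ftl1 (ferritin heavy and light chain), Slc40a1 (ferroportin), Tfrc (transferrin receptor), Hmox1 (heme oxygenase 1) and Slc11a1 (the phagosomal metal transporter NRAMP1). These 6 members were given by name, and all 6 were found among the 31053 genes of the count tables. One library carried the label wildtype and the other a title spelled Igfbpl-/1, which the protocol and series title write as Igfbpl1-/- (called the knockout label here), both on the C57BL/6 strain, and the cells were captured with the 10x 3′ kit. The design text speaks of 10 knockout and 10 wildtype mice, matched for sex and 8 to 10 months old, that were perfused before the retinas were digested. How many mice went into each library, and which part of Igfbpl1 was deleted, is not given in the sources used here. With 1 library per label, no difference between the labels has a replicate check, so intervals are 95% intervals of counting error and no p-value is given.

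Iron enters most cells bound to transferrin through the transferrin receptor, is kept as a mineral inside ferritin, a shell of heavy and light chains, and leaves through ferroportin, the only known cellular iron exporter. The heavy chain oxidises iron for storage and the light chain helps to form the mineral core. Macrophages also take iron from engulfed heme: heme oxygenase 1 opens the heme ring, and NRAMP1 moves metal ions across the membrane of the phagosome. In the retina, Müller glia, the radial support cells, are known to handle iron for the neurons, and microglia are its resident macrophages.

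Many of these messages are controlled after transcription by iron regulatory proteins, which bind a hairpin called the iron-responsive element. In the 5′ UTR it holds back translation when iron is scarce, and in the 3′ UTR of Tfrc it keeps the message from decay. UMI counts therefore show the message, not the protein. The elements of the first GENCODE M21 transcript of each member (GRCm38, the mm10 build) are printed here because they separate the storage and export genes from the uptake gene. The motif searched was a C, any 5 bases, the loop CAGTGN and 5 bases that all pair with the 5 before the loop (G with T allowed), on the transcript strand, with the loop in capitals. Each has 30 bases, 5′ to 3′.
Fth1 element 1: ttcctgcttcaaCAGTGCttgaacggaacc
Ftl1 element 1: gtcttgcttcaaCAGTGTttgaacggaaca
Slc40a1 element 1: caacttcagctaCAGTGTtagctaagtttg
Tfrc element 1: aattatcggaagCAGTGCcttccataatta
Tfrc element 2: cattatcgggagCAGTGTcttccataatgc
Tfrc element 3: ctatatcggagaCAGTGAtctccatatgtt
Tfrc element 4: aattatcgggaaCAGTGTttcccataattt

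The Fth1 element lies at chr19:9982732-9982761 on the plus strand, the Ftl1 element at chr7:45459778-45459807 on the minus strand and the Slc40a1 element at chr1:45925464-45925493 on the minus strand, each in exon 1 and in the 5′ UTR. The Tfrc elements lie in the 3′ UTR, in exon 19, on the plus strand, at chr16:32631219-32631248, chr16:32631598-32631627, chr16:32631663-32631692 and chr16:32631710-32631739. The motif was not found in the first transcripts of Hmox1 (chr8:75093621-75100589, 5 exons) and Slc11a1 (chr1:74375203-74386062, 15 exons). Of 21291 first protein-coding transcripts, 237 (1.11%) held it and 1 held it at least 4 times. A match is a description of the letters, not a shown binding site.

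The tables held 2735 barcodes with 11020717 UMIs under the wildtype label and 1785 barcodes with 7945713 UMIs under the knockout label. After filters (500 UMIs, 250 genes, at most 15% mitochondrial UMIs), 2695 and 1761 cells remained, with a median of 3910 and 4286 UMIs. Igfbpl1 itself went against the labels, with 2 counts (0.181 CPM, counts per 1000000 UMIs) under the wildtype label and 29 counts in 27 cells (3.65 CPM, interval 2.44 to 5.24) under the knockout label. A 3′ tag outside a deleted part would not report the deletion, but why the counts were higher under the knockout label was not tested. Each library is therefore named only by its label. Hemoglobin and Alas2 transcripts, markers of red cells, summed to 25 and 26 counts. One barcode occurred in both libraries and fell among the microglia in both.

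Cells were assigned by counted markers: at least 3 UMIs over at least 2 genes of a list, to the list with the most UMIs. Microglia (P2ry12, Tmem119, Sall1, Siglech, Gpr34, P2ry13, Olfml3) numbered 2351 under the wildtype label and 1454 under the knockout label. Border macrophages (Mrc1, Pf4, Ms4a7, F13a1, Lyve1, Cbr2), which line the vessels and surfaces of the tissue, numbered 73 and 47. Of these border cells, 55 and 32 also passed the microglia gate, and their microglial markers summed to 1649 and 1508 CPM against 7719 and 7942 CPM in microglia. Müller glia (Rlbp1, Dkk3, Slc1a3 and 6 others) numbered 53 and 38, with Rlbp1 at 2618 and 3426 CPM. They held Ptprc, the gene of CD45, in 4 and 1 cells. Cells with at least 10 UMIs over at least 2 of Spp1, Gpnmb, Fabp5 and Lgals3, a program of phagocytes, were taken as the fourth class ahead of the other gates (unless Müller markers outnumbered those of microglia and border macrophages), with 16 and 31 cells and a median of 9556 and 9165 UMIs. Only 8 and 14 of them held a Spp1 UMI, and under the wildtype label Lgals3 gave 504 counts against 56 of Spp1, so they are called Spp1/Lgals3-gated cells here. P2ry12 was found in 8 and 10 of them. No doublet caller was run.

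Ferritin was among the most abundant messages of these retinal cells. Over all kept cells Fth1 made up 0.691% of UMIs under the wildtype label and 0.745% under the knockout label, rank 10 of all genes in both, and Ftl1 stood at rank 21 and 18. The 6 members together made up 1.07% and 1.14%. Among the 4 classes described here, both ferritin chains were lowest in Müller glia, higher in microglia, higher again in border macrophages and highest in the Spp1/Lgals3-gated cells, in both libraries. Outside them, rods and bipolar cells, neurons that came through the sort, held Ftl1 at 954.3 and 636.0 CPM, below Müller glia, and cells in no class held Fth1 at 12440 and 11501 CPM, above border macrophages. 
In microglia the Fth1 level was 6300 CPM (6250 to 6350) under the wildtype label and 6119 CPM (6059 to 6179) under the knockout label. In border macrophages it was 11199 CPM and 10802 CPM, 1.78 (1.72 to 1.84) and 1.77 (1.69 to 1.84) times the microglia of the same library; border cells with no microglial marker UMI stood at 3.1 and 2.81 times. In Spp1/Lgals3-gated cells it was 38990 CPM and 31649 CPM, 6.19 and 5.17 times microglia. In Müller glia it was 2543 CPM and 2350 CPM, 0.404 and 0.384 times microglia. The counting intervals of neighbouring classes did not touch in either library, but they leave out the spread between cells. Single cells of neighbouring classes overlapped. The lower quartile of the Fth1 share in Spp1/Lgals3-gated cells was 1.00% and 1.13%, beside medians of 0.999% and 1.01% in border macrophages.

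Ftl1 kept the same order. Its level was 3047 and 2890 CPM in microglia, 5969 and 4912 CPM in border macrophages, 12831 and 13491 CPM in Spp1/Lgals3-gated cells and 1220 and 1026 CPM in Müller glia, each pair giving the wildtype label first. Spp1/Lgals3-gated cells thus held 4.21 and 4.67 times the Ftl1 of microglia, and Müller glia 0.40 and 0.355 times. Read against all genes tested (at least 50 CPM in one of the 2 classes and 20 counts together), 11.8% of 3246 genes were at least 1.5-fold higher in Spp1/Lgals3-gated cells in both libraries and 2.46% at least 4-fold higher, which Fth1 and Ftl1 both were. For border macrophages 5.93% of genes were 1.5-fold higher and 19.6% 1.5-fold lower, and for Müller glia 35.1% were higher and 26.0% lower.

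**Figure D1:**
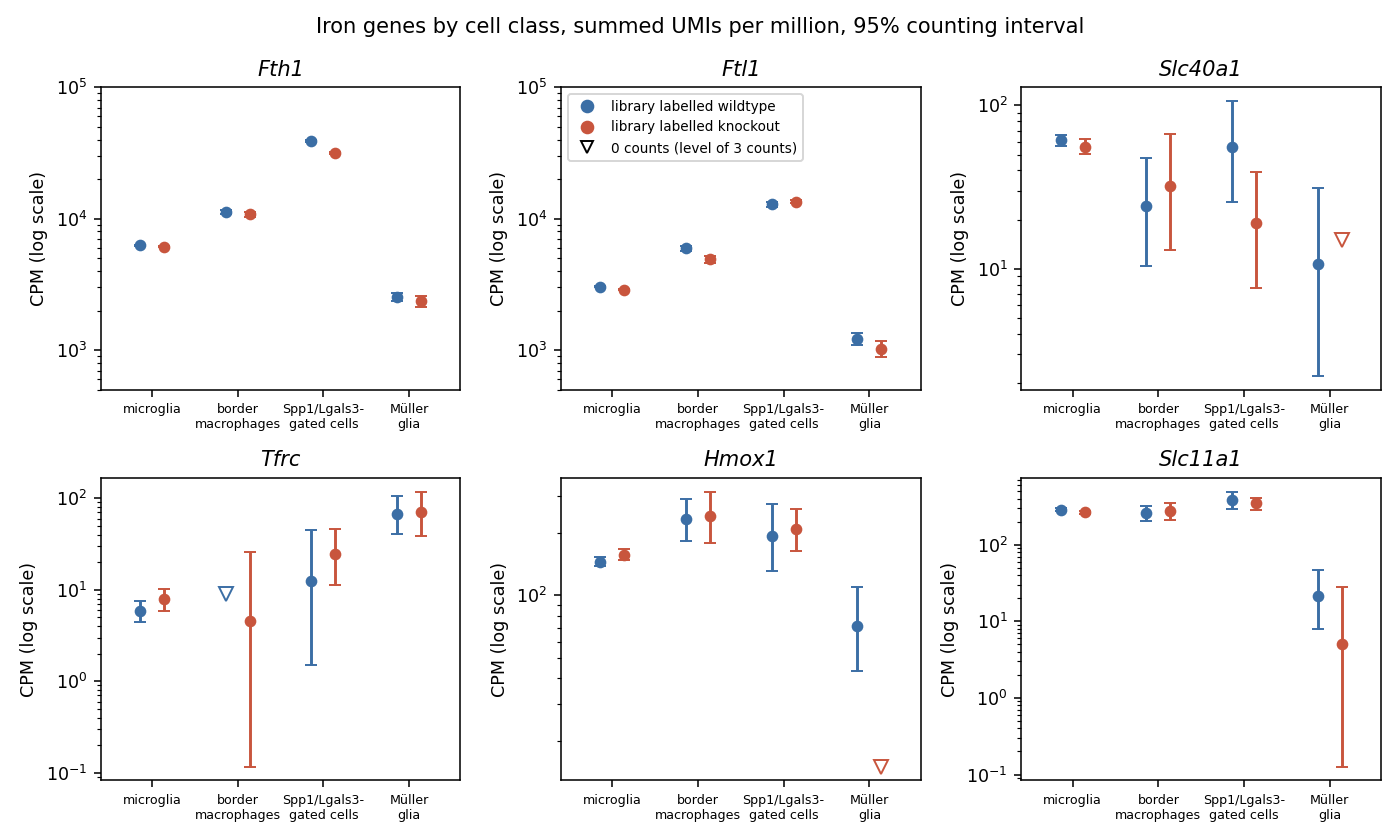
Level of each iron gene (CPM, log scale) in 4 cell classes, blue for the library labelled wildtype and red for that labelled knockout; bars are 95% counting intervals and open triangles mark 0 counts, drawn at the level of 3 counts. Fth1 runs from 2350 CPM in Müller glia to 38990 CPM in Spp1/Lgals3-gated cells, while Tfrc is highest in Müller glia among these 4 classes.

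The Spp1/Lgals3-gated cells were far from uniform. The Fth1 share of a cell's UMIs ran from 0.396% through a median of 1.58% to 8.96% under the wildtype label, and from 0.170% through 1.75% to 7.38% under the knockout label. Shares of at least 5% were reached by 5 of 16 and 6 of 31 of these cells, against 1 of 2351 and 0 of 1454 microglia. With every cell given equal weight the class stood at 4.98 and 4.31 times microglia for Fth1, and at 3.84 and 4.25 times for Ftl1. Among microglia the Fth1 share had a median of 0.582% and 0.554%, and 95% of cells lay below 1.32% and 1.34%. Border macrophages had a median of 0.999% and 1.01%, and Müller glia of 0.201% and 0.203%.

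**Figure D2:**
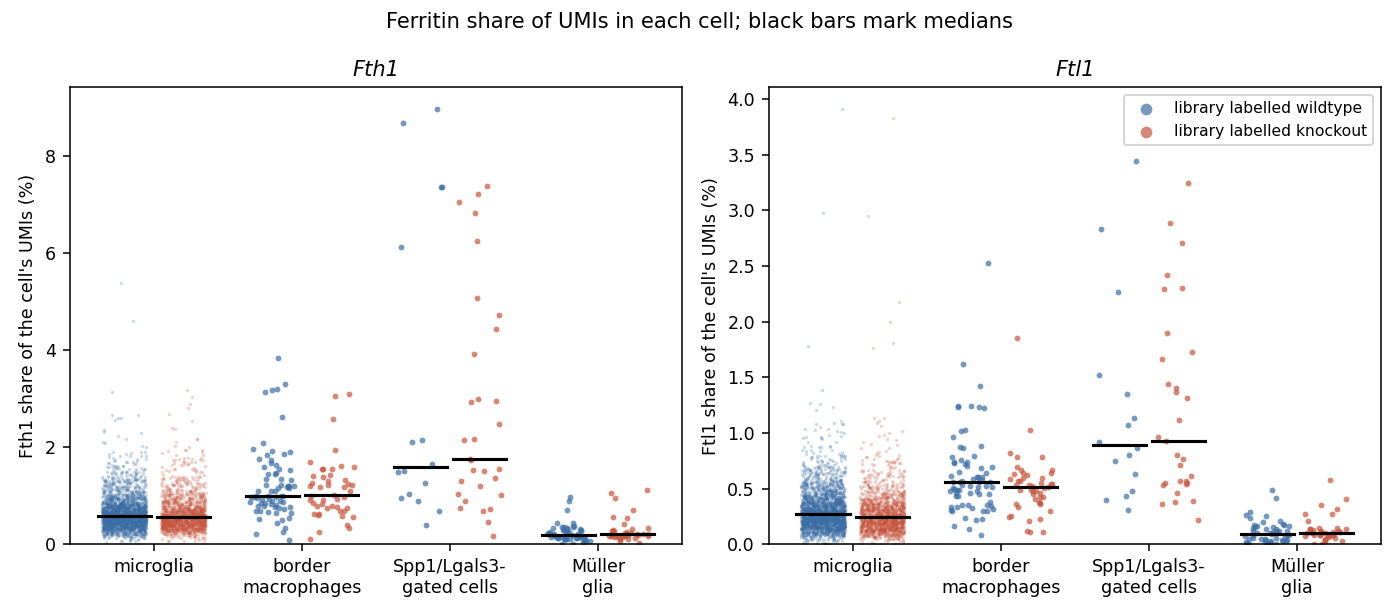
Share of each cell's UMIs taken by Fth1 (left) and Ftl1 (right), in percent, by class and library (blue wildtype label, red knockout label); each point is a cell and black bars are medians. The Spp1/Lgals3-gated cells spread from under 0.5% to 8.96% for Fth1, while the microglial medians are 0.582% and 0.554%.

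Lgals3, which encodes the lectin galectin-3, and Fabp5, a fatty acid carrier, were set beside Fth1 in single cells. Spearman's rho between the Lgals3 share and the Fth1 share over cells was 0.65 (16 cells) and 0.39 (31 cells), and for Spp1, which encodes osteopontin, −0.22 and −0.10. For Fabp5 it was 0.03 and 0.48, the latter above Lgals3, and for Gpnmb −0.10 and 0.00. Cells of 1 library share their preparation and these values are descriptions. The 7 and 6 cells in which Lgals3 gave at least 50% of the 4 genes' counts held Fth1 at 57378 and 40425 CPM. The 7 and 20 cells led by the other 3 genes held it at 21516 and 31986 CPM. The 2 and 5 cells with at least 3 UMIs of monocyte markers (Ly6c2, Plac8, Ccr2, Chil3, Ms4a4c) held 9311 and 7965 CPM, the lowest of the 3 subsets. Just inside the gate, at 10 to 14 UMIs of the 4 genes, lay 2 and 9 cells with Fth1 at 14358 and 13762 CPM. Just outside it, at 5 to 9 UMIs, lay 5 and 5 cells with 19710 and 16111 CPM. The median Fth1 share was 1.69% and 1.31% inside and 1.64% and 1.53% outside. The highest cell outside reached 5.38% and 6.61%. High ferritin was therefore not limited to the cells the gate took.

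A 3′ kit counts 1 tag per molecule whatever its length, so the UMIs of the heavy and light chains were set against each other as counted. Microglia held 2.07 Fth1 UMIs per Ftl1 UMI (2.04 to 2.10) under the wildtype label and 2.12 (2.08 to 2.15) under the knockout label. Border macrophages held 1.88 and 2.20, and Müller glia 2.08 and 2.29. Spp1/Lgals3-gated cells held 3.04 and 2.35 as sums, but the median over their cells with at least 5 Ftl1 UMIs was 2.16 and 2.11, near that of microglia (2.0 and 2.15). Monocytes, of which there were 7 and 17, were the class with more light than heavy chain, at 0.688 and 0.896. The tables list 1 named copy of the light chain gene, Ftl1-ps1, which took 0.974% and 1.56% of the counts of both in microglia. With it added, the ratios in microglia were 2.05 and 2.08. How the counting treated reads shared by Ftl1 and this near-identical copy is not given in the sources used here. Values of Ftl1-ps1, the level of Ftl1 and the size of the heavy to light ratio are therefore uncertain.

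Fth1 and Ftl1 showed opposite directions between the libraries depending on which cells were summed. Over all kept cells the ratio of knockout label to wildtype label was 1.08 (1.07 to 1.09) for Fth1 and 1.07 (1.05 to 1.08) for Ftl1. Within microglia it was 0.971 (0.959 to 0.984) and 0.948 (0.931 to 0.966). The Spp1/Lgals3-gated cells made up 0.594% and 1.76% of cells but held 8.25% and 19.7% of all Fth1 counts, and 5.73% and 17.9% of all Ftl1 counts. All kept cells without them gave 0.974 for Fth1 and 0.960 for Ftl1, and microglia with them added gave 1.10 and 1.08. Shares of cells in 1 library each carry no estimate of how they vary between mice.

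Slc40a1, the exporter, was a low message. It stood at 61.0 CPM (56.2 to 66.1) and 56.0 CPM (50.3 to 62.0) in microglia, which held 94.3% and 90.5% of its counts and 88.7% and 82.2% of all UMIs. Cells in no class held it at 60.7 CPM (34.0 to 100.1) and 71.2 CPM (44.6 to 107.8), intervals that include the microglial levels. These sums mix unlike cells. Of the 15 and 22 counts, 10 and 12 lay in 15 and 12 cells with neutrophil markers, at 294.7 and 443.0 CPM. At least 1 UMI was seen in 18.8% and 18.6% of microglia, and in 5.0% and 5.02% after each cell was thinned to 1000 UMIs. Rods and bipolar cells showed it in 0 of 28 and 0 of 20 cells, which allows up to 10.7% and 15% of cells with a UMI; at their median depths of 1870 and 1713 UMIs this sets no limit on cells that express it. Border macrophages held 24.1 CPM (8 counts) and 32.3 CPM (7 counts), 0.395 (0.170 to 0.784) and 0.577 (0.230 to 1.2) times microglia. Spp1/Lgals3-gated cells held 56.0 CPM (9 counts, 4 of them in 1 cell) and 19.1 CPM (7 counts). The ferritin-rich class thus had 0.918 (0.418 to 1.75) and 0.341 (0.136 to 0.709) times the exporter message of microglia. Müller glia held 3 counts under the wildtype label and 0 under the knockout label. Set to 3 counts, the latter is 3.71-fold lower than microglia, and the counting interval reaches up to 0.333 times microglia.

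Tfrc, the uptake receptor, was higher in Müller glia than in the other 3 classes. It stood there at 67.8 CPM (19 counts in 16 of 53 cells) and 70.4 CPM (14 counts in 12 of 38 cells), 11.6 (6.51 to 19.8) and 8.99 (4.59 to 16.5) times microglia. Microglia held 5.85 CPM (57 counts) and 7.84 CPM (51 counts). Border macrophages held 0 counts and 1 count, and Spp1/Lgals3-gated cells 2 counts and 9 counts (24.5 CPM). Rods and bipolar cells held 131.6 CPM (12 counts in 7 cells) and 44.4 CPM (3 counts in 2 cells). Müller glia made up 1.97% and 2.16% of cells but held 19.4% and 15.1% of all Tfrc counts. Among the myeloid classes, Spp1/Lgals3-gated cells stood at 3.13 (1.35 to 6.41) times microglia under the knockout label and at 2.13 (0.251 to 8.04) times, from 2 counts, under the wildtype label.

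Hmox1 was at least 1.5-fold higher in border macrophages than in microglia in both libraries, and it was uneven within microglia. It stood at 145.3 CPM (137.8 to 153.0) and 156.8 CPM (147.3 to 166.7) in microglia, 232.1 and 239.8 CPM in border macrophages, and 192.8 and 207.0 CPM in Spp1/Lgals3-gated cells. Border macrophages were 1.6 (1.25 to 2.01) and 1.53 (1.13 to 2.02) times microglia, and the Spp1/Lgals3-gated cells 1.33 (0.898 to 1.89) and 1.32 (1.03 to 1.67) times. Intervals of border macrophages and Spp1/Lgals3-gated cells overlapped. Of all genes tested, 5.93% were 1.5-fold higher in border macrophages in both libraries. Monocytes held 41.8 CPM (2 counts) under the wildtype label and 302.5 CPM (216.1 to 412.0, 40 counts) under the knockout label. Only 63 of 2351 and 51 of 1454 microglia held at least 5 Hmox1 UMIs, yet they carried 34.1% and 49.9% of the class's Hmox1 counts. In Müller glia under the wildtype label 17 of the 20 counts came from 1 cell with 11920 UMIs and 1 microglial marker UMI. Under the knockout label Müller glia held 0 counts, at least 10.4-fold lower than microglia.

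Most microglial Hmox1 counts, 1092 of 1415 and 822 of 1020, lay in cells with inducible heat shock transcripts. These cells were 1267 of 2351 and 756 of 1454 microglia. They also held most Fth1 counts, 36507 of 61373 and 22639 of 39809, so a majority of counts is not particular to Hmox1. Microglia with at least 5 UMIs of Hspa1a and Hspa1b, 1267 and 756 cells, held Hmox1 at 179.6 and 205.6 CPM against 88.3 and 78.9 CPM in the others, a ratio of 2.03 (1.80 to 2.31) and 2.61 (2.23 to 3.06). Only 0.870% of 3102 genes were 1.5-fold higher in these cells in both libraries. They were also deeper, with a median of 4410 against 3238 UMIs and of 4898 against 3077; after thinning to 1000 UMIs the ratios were 2.53 and 2.89. Ferritin did not share this direction: Fth1 was at 0.884 and 0.827 times, and Ftl1 at 0.895 and 0.856 times, the level of the other microglia. Heat shock genes respond to tissue handling as well as to stress in the animal, and the part of dissociation in these values was not tested.

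Microglia with at least 20 UMIs of the chemokines Ccl3 and Ccl4 held 1.48 (1.34 to 1.65) and 1.69 (1.49 to 1.92) times the Hmox1 of the others. Fth1 was at 0.967 and 0.975 times and Ftl1 at 1.06 (1.03 to 1.08) and 1.09 (1.06 to 1.12) times. These cells were also deeper, with a median of 4648 against 3670 UMIs and of 5341 against 3946. A cell could be in more than 1 state, and the overlap with the heat shock cells was not counted. Microglia with at least 3 Apoe UMIs held more of both ferritin chains. Fth1 was 1.16 (1.13 to 1.2) and 1.21 (1.17 to 1.24) times, and Ftl1 1.28 (1.23 to 1.33) and 1.32 (1.26 to 1.37) times, that of microglia with less Apoe, which encodes a lipid carrier. Hmox1 in the microglia with at least 3 Apoe UMIs was at 1.21 (1.00 to 1.46) and 1.79 (1.53 to 2.09) times. Ftl1 and Hmox1 were past 1.2-fold in both libraries, as were 3.49% of 3095 genes tested. Proliferating microglia (at least 3 UMIs over at least 2 of 8 mitotic genes such as Mki67 and Top2a), 25 and 15 cells, held less light chain, with Ftl1 at 0.728 (0.659 to 0.802) and 0.670 (0.577 to 0.773) times and Fth1 at 1.00 and 0.955 times.

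**Figure D3:**
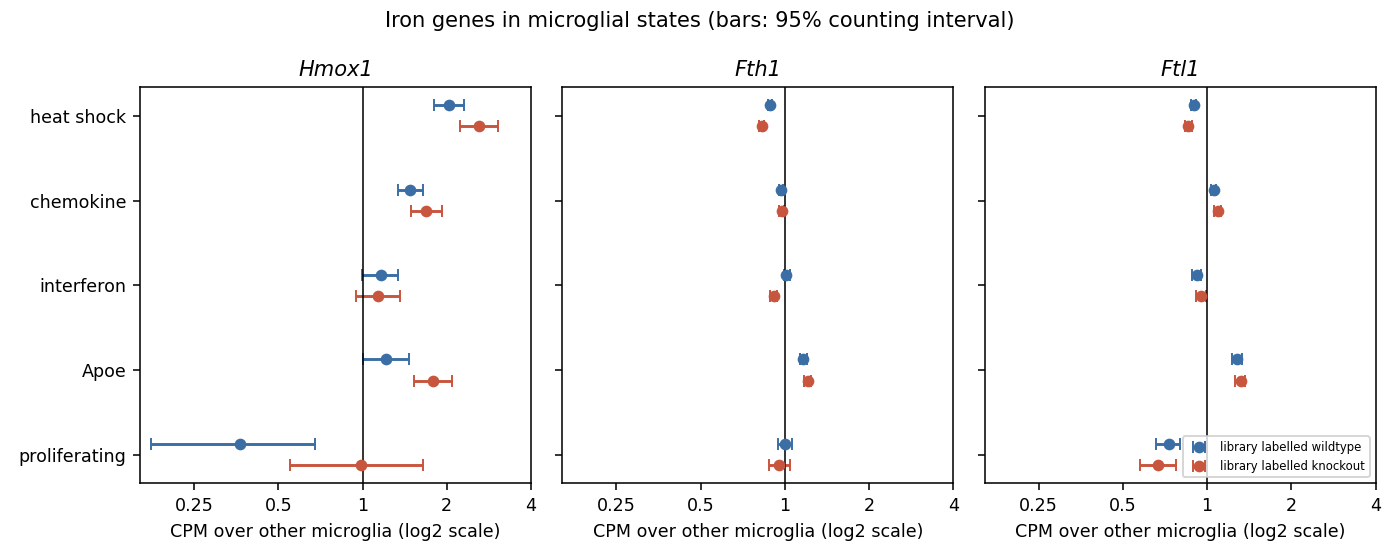
Hmox1, Fth1 and Ftl1 in microglial states as a ratio to the other microglia of the same library (log2 scale; blue wildtype label, red knockout label; bars are 95% counting intervals). Hmox1 is 2.03 and 2.61 times as high in heat shock microglia, where Fth1 is at 0.884 and 0.827 times.

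Slc11a1 was found in every macrophage class. Microglia held 288.1 and 266.1 CPM, border macrophages 256.2 and 276.7 CPM, and Spp1/Lgals3-gated cells 385.6 and 346.0 CPM. The latter were 1.34 (1.02 to 1.72) and 1.30 (1.08 to 1.56) times microglia, and border macrophages 0.889 (0.708 to 1.10) and 1.04 (0.790 to 1.35) times. Among the Spp1/Lgals3-gated cells, those led by Lgals3 held 562.4 and 569.8 CPM and those led by the other genes 194.0 and 295.5 CPM. Monocytes held less, at 20.9 CPM (0.529 to 116.5) and 158.8 CPM (98.3 to 242.8). Müller glia held 6 counts and 1 count, and rods and bipolar cells 0 counts in both libraries. The 6 counts in Müller glia under the wildtype label (21.4 CPM, 0.0743 times microglia) stood beside microglial markers at 852.3 CPM in those cells, against 30.2 CPM under the knockout label. The part of microglial RNA in them was not tested.

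Around the members, 8 lists of iron, heme and antioxidant genes were followed. One list held targets of Nrf2, the transcription factor that also drives ferritin and Hmox1. In Spp1/Lgals3-gated cells, of 10 listed targets 7 passed the filter in both libraries and 6 of these were at least 1.5-fold higher (0 lower), but 5 of the 7 passed only through the gated cells, so this count supports nothing by itself. Of the 2 at 50 CPM or more in microglia, Prdx1, a peroxiredoxin, was 7.18 (6.36 to 8.07) and 6.43 (5.86 to 7.05) times microglia and was seen in 15 of 16 and 28 of 31 cells, while Mafg was at 1.56 and 0.850 times. The others are given as values of genes that passed through the gated cells alone. Gclm, of glutathione synthesis, was 8.98 and 9.30 times, Gsr, the glutathione reductase, 10.0 and 6.31 times, and Txnrd1, a thioredoxin reductase, 8.66 and 4.66 times. Slc7a11, the cystine importer, was 31.0 and 32.9 times microglia. Srxn1, the sulfiredoxin, went from 0.719 to 199.0 CPM and from 1.84 to 160.7 CPM, but 22 of its 32 and 20 of its 59 counts came from 1 cell each. Of the 3 targets that did not pass, Nqo1 had 2 and 0 counts in the gated cells, Gclc 18.7 and 46.3 CPM, and Osgin1 37.3 and 21.8 CPM. Hmox1, another target, was not past 1.5-fold in these cells. Nfe2l2, which encodes Nrf2, was at 1.07 and 1.06 times.

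Heme handling in the same cells was led by Blvrb, the biliverdin reductase B that also reduces flavins, at 740.1 and 476.8 CPM, 9.21 (7.53 to 11.2) and 5.75 (4.82 to 6.84) times microglia. Of 13 heme genes 6 passed the filter, Blvra (40.3 CPM in microglia of both libraries) only through the gated cells. Blvrb and Blvra were higher, as were 11.8% of all genes, Blvra at 1.54 (0.734 to 2.87) and 1.96 (1.29 to 2.88) times. Hmox2, the constitutive heme oxygenase and most abundant member of the list in microglia after Lrp1, was lower at 0.650 (0.396 to 1.01) and 0.573 (0.399 to 0.799) times. Mt1, a metallothionein, stood at 2.41 and 3.96 times microglia and Hif1a, the hypoxia-response factor, at 2.55 and 2.58 times. Bmpr2 was lower, at 0.445 and 0.553 times. The background in this comparison was 26.2% of genes 1.5-fold lower. Pcbp1 and Pcbp2, the chaperones that hand iron to ferritin, were at 1.04 and 0.919 times and at 0.998 and 1.12 times, so the ferritin difference did not extend to them.

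In border macrophages some of the same genes were higher, Blvra and Cp having passed the filter only through that class. Blvrb was 3.68 and 3.34 times, Blvra 1.87 and 1.95 times, Mt1 1.99 and 2.29 times and Prdx1 1.78 and 2.08 times microglia. Cp, which encodes ceruloplasmin, the copper enzyme that oxidises iron leaving through ferroportin, was at 153.7 and 138.4 CPM against 9.85 and 16.9 CPM in microglia. Lrp1, a receptor for heme bound to hemopexin, was lower at 0.489 and 0.634 times. Of 9 iron uptake genes none passed the filter in both libraries in border macrophages or in Spp1/Lgals3-gated cells against microglia. Slc11a2 passed it under the wildtype label only, through the Spp1/Lgals3-gated cells, at 3.91 (1.98 to 6.99) times microglia from 12 counts. Under the knockout label, below the filter, it was at 2.31 (1.25 to 3.97) times from 15 counts.

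Müller glia were marked by ceruloplasmin and metallothioneins. Cp reached 1330 and 1213 CPM, 135.0 (107.6 to 170.7) and 71.7 (57.0 to 90.7) times microglia, and was seen in 50 of 53 and 31 of 38 cells. Mt1 was 5.30 and 6.91 times and Mt2 21.3 and 50.3 times microglia, and Mt3 stood at 274.6 and 417.6 CPM against 5 and 3 counts in all microglia. Slc48a1, a heme transporter of endosomes, was 6.88 (4.80 to 9.66) and 4.85 (3.02 to 7.47) times, and Fbxl5, which targets an iron regulatory protein for decay, 1.78 and 2.14 times. Epas1, encoding a hypoxia-response factor, reached 139.1 and 417.6 CPM, with 54 of 83 counts in 1 cell under the knockout label. Of the mitochondrial iron list Glrx5, a glutaredoxin, was 1.59 and 1.80 times. Of the Nrf2 targets Gclm was 3.96 and 7.68 times, Prdx1 2.40 and 2.90 times and Mafg 0.298 and 0.344 times. Lower in both libraries were also Hmox2 (0.503 and 0.353 times), Nfe2l2 (0.505 and 0.531 times) and Bach1, a repressor of Hmox1, with 2 and 4 counts. Tfrc, Cp, Mt2, Mt3, Slc48a1, Fbxl5, Epas1 and Gclm were below 50 CPM in microglia and passed the filter only through Müller glia, so their being higher supports nothing by itself.

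**Figure D4:**
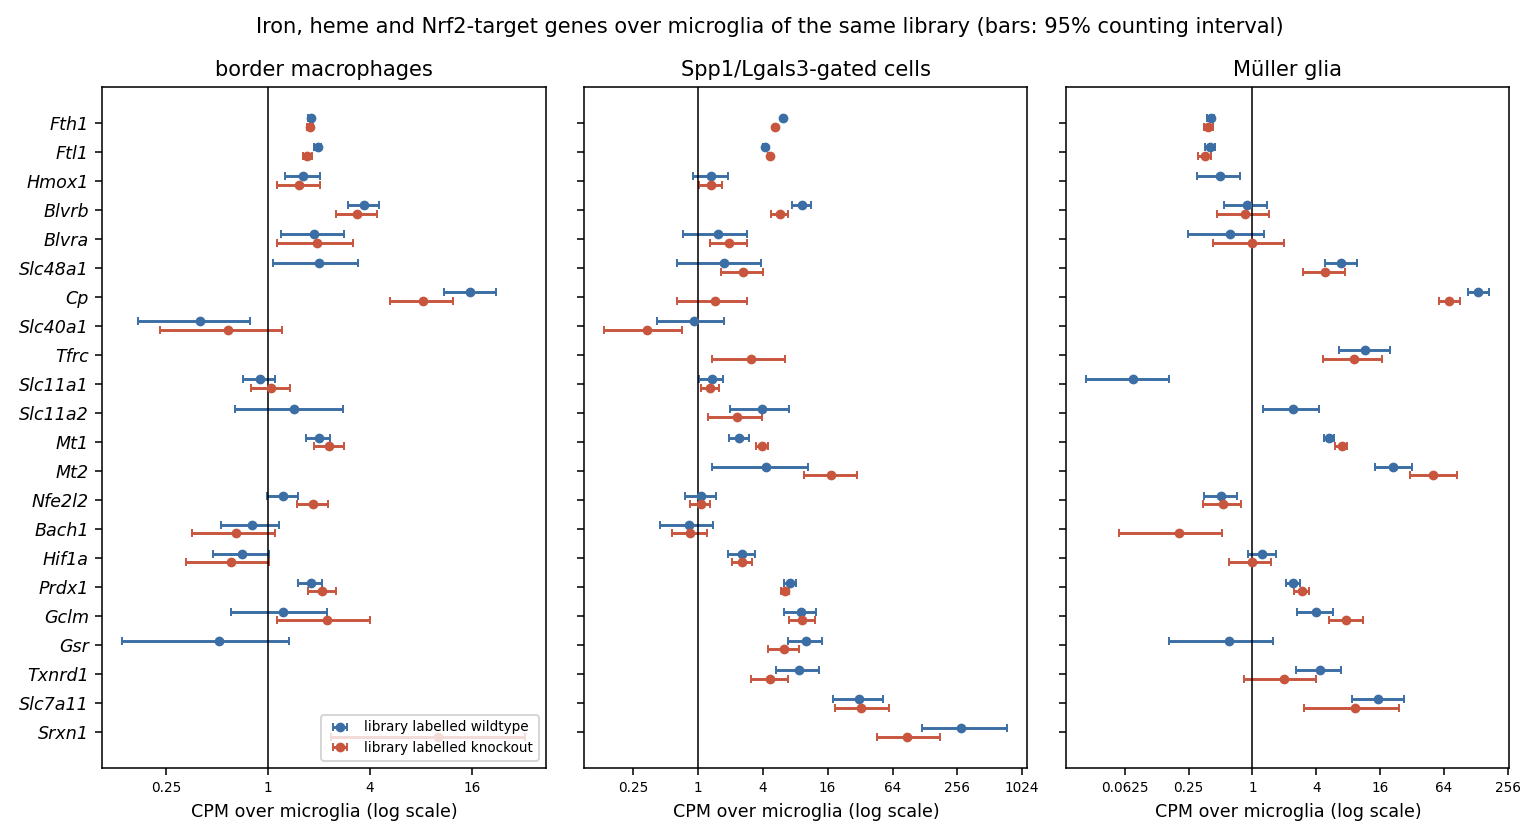
Iron, heme and Nrf2-target genes in 3 classes as a ratio to microglia of the same library (log scale; blue wildtype label, red knockout label; bars are 95% counting intervals; a gene with 3 counts or fewer in either class is not drawn). Ferritin, Blvrb and Prdx1 lie right of 1 in border macrophages and further right in Spp1/Lgals3-gated cells, and Tfrc and Cp do so in Müller glia.

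Between the libraries, 0 of the 5 members tested in microglia were past 1.2-fold, against 11.2% of 3227 genes, and 0 past 1.5-fold, against 0.961%. In microglia, besides the ferritin ratios given, knockout label over wildtype label was 0.918 (0.803 to 1.05) for Slc40a1, 1.08 (0.995 to 1.17) for Hmox1 and 0.923 (0.869 to 0.981) for Slc11a1. Tfrc, below the filter, was at 1.34 (0.900 to 1.99), and at 0.511 after thinning, from 6 cells with a UMI under the knockout label. The direction of Fth1 turned to 1.01 with the gate of 20 UMIs over 3 genes, which returns cells to the microglia, and that of Hmox1 to 0.992 as the mean over cells. No member of the 8 lists that passed the filter was past 1.5-fold in microglia; the nearest was Lrp1 at 1.29 (1.21 to 1.37).

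In border macrophages Fth1 was at 0.965 (0.916 to 1.02) and Ftl1 at 0.823 (0.763 to 0.887) under the knockout label relative to the wildtype label. In Spp1/Lgals3-gated cells Fth1 was at 0.812 (0.787 to 0.837) and Ftl1 at 1.05 (0.999 to 1.11). With a gate of 20 UMIs over 3 of the 4 genes these were 0.694 and 0.909. In Müller glia the ratios were 0.924 for Fth1 and 0.842 for Ftl1, but 1.25 and 1.23 as the mean over cells. Hmox1 in Müller glia, at 20 counts against 0, was past 1.5-fold lower under the knockout label, with 17 of the 20 counts in 1 cell. Slc40a1 in Spp1/Lgals3-gated cells, below the filter, was at 0.341 (0.108 to 1.03). Counting intervals do not cover differences between mice. Past 1.5-fold in one direction or the other were 26.3% of genes in border macrophages, 33.6% in Spp1/Lgals3-gated cells and 29.1% in Müller glia. Neither Fth1 nor Ftl1 was among them. The copy Ftl1-ps1 was, at 1.53 (0.751 to 3.12) in border macrophages and 3.12 (1.48 to 7.58) in Spp1/Lgals3-gated cells, the latter from 8 and 57 counts. In microglia, below the filter, Ftl1-ps1 was at 1.52 (1.29 to 1.80), against 0.948 for Ftl1.

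**Figure D5:**
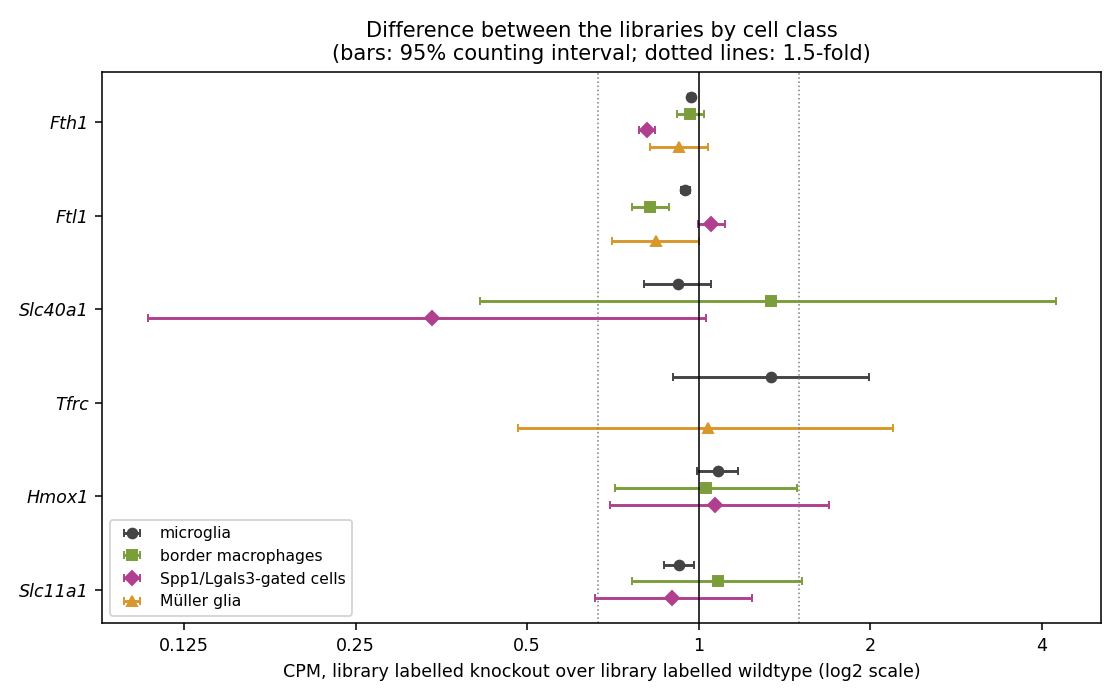
Ratio of the level under the knockout label to that under the wildtype label for each iron gene and class (log2 scale; bars are 95% counting intervals; dotted lines mark 1.5-fold; pairs with 3 counts or fewer in a library are left out). The Fth1 and Ftl1 ratios lie between 0.812 and 1.05, and those of Slc40a1 and Tfrc have wide intervals.

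Over the 8 values of 4 classes in 2 libraries, the gene with the pattern most like Fth1 among 5577 genes was Ftl1 (Pearson's r of log2(CPM + 10) 0.992), followed by Plaur (0.991) and Akr1a1 (0.988). The most alike genes were Htatip2 (0.994), Fth1 (0.992) and Uap1l1 (0.987) for Ftl1, Smad1 (0.976), Gsdmd (0.973) and Srsf9 (0.971) for Slc40a1, and Bccip (0.994), Mlf2 (0.993) and Ywhaq (0.992) for Tfrc. Hmox1 was most like Cd14 (0.979), Tgif1 (0.976) and Fcer1g (0.971), and Slc11a1 like Cd52 (0.998), Mpeg1 (0.998) and Ptafr (0.998). With 8 points that pair the same classes in 2 libraries, these values describe which classes hold a gene.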

How the data were processed

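The authors deposited raw UMI counts per gene and cell barcode, 1 table per library; the submitters' processing notes name Cell Ranger 3.1 and mm10. The tables were read with Python 3.11.15, numpy 2.4.6, scipy 1.17.1 and pandas 2.3.3. For each class, gene counts were added up and divided by the class's total UMIs (CPM). Intervals are exact at 95%: Poisson for sums, Clopper-Pearson for shares, and the binomial split of counts for ratios; they cover counting error only. A count of 0 was set to 3 counts where a bound or a fold against 0 counts is given. To call a fold, every count under 3 was set to 3. Genes were tested for a fold at 50 CPM in 1 compared group and 20 counts over both together. Detection was also read after thinning to 1000 UMIs. Genes named are the 6 members, listed genes past the fold or most abundant, and the 3 most alike genes of each member. List counts used the 50 CPM filter; 20 CPM was the alternative. The count ratios and their intervals were tested on simulated independent counts of summed microglia with known folds. That setting holds no spread between cells and no small class, so it says nothing about either. Members and lists were chosen with earlier results of these data known.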

Additional observations from a re-analysis of the deposited data

Results flagged for a closer look

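Some cells outside every class carried member messages. Unassigned cells with at least 10 UMIs over at least 2 neutrophil markers (S100a8, S100a9, Retnlg, Ly6g), 15 and 12 of them, held Slc40a1 at 294.7 CPM (10 counts in 6 cells) under the wildtype label and 443.0 CPM (12 counts in 6 cells) under the knockout label, above the 61.0 and 56.0 CPM of microglia. Their median depth was 1963 and 2233 UMIs, and Tfrc was at 0 counts in both sets. One unassigned cell under the knockout label, with 4255 UMIs, held 50 Hmox1 counts, more than any microglia (39), beside 337 Fth1 and 246 Ftl1 counts, 4 Ptprc counts and 0 counts of Hspa1a. It carried 9 UMIs of the 4 genes of the Spp1/Lgals3 gate, which asks for 10.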

How the results depend on the processing

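No paired analysis was possible because each label has 1 library. Of 547 recomputed values, 396 stayed within the counting interval or 1.5 times the count, 150 moved and 1 reversed: Tfrc in heat shock microglia under the knockout label, at a log2 ratio of −0.13 after thinning. Only a main ratio at least 1.5-fold from even could be called reversed. A smaller one that changed sign was counted as stayed or moved. Fth1 and Ftl1 of Müller glia between the libraries were such cases. All log2 values follow. Between the libraries in microglia, with the Spp1/Lgals3 gate at 20 UMIs over 3 genes, Fth1 moved to 0.01, changing sign, and Ftl1 to −0.03. The mean per cell gave Ftl1 −0.13 and Hmox1 −0.01, which changed sign; thinning gave Ftl1 −0.11, Slc11a1 −0.29 and Tfrc −0.97 on 18 and 6 cells with a UMI.

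For Spp1/Lgals3-gated cells over microglia, 15 of 20 ferritin values moved and each stayed at 1.94 or more. Fth1 under the wildtype label was 2.32 as the mean per cell, 2.27 thinned, 2.0 with 5 Spp1 UMIs as the gate and 2.74 without monocyte-marker cells; under the knockout label it was 2.11, 2.17, 2.33 and 2.50, and 2.40 with all other classes gated at 5 UMIs over 3 genes. Ftl1 was 1.94 and 1.98 as the mean and thinned under the wildtype label, and 2.09, 2.08, 2.33 (without monocyte-marker cells) and 2.27 (other classes gated at 5 UMIs) under the knockout label. The gate by Spp1 alone and the removal of monocyte-marker cells were chosen after seeing the data, as were a heat shock state by share of UMIs and Müller glia without microglial markers. The Fth1 to Ftl1 ratio as a median per cell was 1.00 in microglia under the wildtype label and 1.11 and 1.08 in the gated cells. Hmox1 in heat shock microglia under the wildtype label was 1.21 as the mean and 1.34 thinned. At a fold of 2, 7 genes in place of 31 were past it between the libraries in microglia, and 192 in place of 383 were higher in the gated cells. Depth limits Tfrc in every myeloid class and Slc40a1 outside microglia.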
